A study of Rattus norvegicus with 6 samples.

Results

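The interferon-stimulated genes compared here are 39 genes that cells switch on when they meet an interferon, taken by name from the tables of scraped rat corneal epithelium. All 39 were found, on 38 of the 61453 loci in each table, because *Tap1* and *Tap2* share a single locus. Where several rows carried a name, the protein-coding row of highest mean FPKM (fragments scaled to the length of the locus and the size of the library) was used. The comparison set 3 diabetic libraries against 3 normal ones. Diabetic rats were male Brown Norway rats given a single intraperitoneal dose of 50 mg/kg streptozocin, a toxin of the insulin-producing cells, and had blood glucose above the limit set by the study. Normal rats were of the same sex and strain and received citrate buffer. Both were sampled at 16 weeks, when the cornea was cut out and its epithelium scraped off with a blade. RNA came from 6 corneas of each group, and 3 rats of each were sequenced. The sources used here give neither the age of the animals nor which corneas made up each library, so the tests measure only the spread between these libraries.

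Interferons are secreted proteins that warn neighbouring cells of a virus. Types I and III act through the receptor chains IFNAR1 with IFNAR2 and IFNLR1 with IL10RB, and the kinases JAK1 and TYK2 then activate a complex that holds STAT2 and IRF9 and binds the interferon-stimulated response element (ISRE) in front of the target genes. Type II interferon works through IFNGR1 and IFNGR2 and leads to binding at the gamma-activated site (GAS). In the cornea, an exposed tissue that herpes viruses infect, such genes are part of the epithelial defence.

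The libraries held 62288901 to 87040253 counts in diabetic and 76500184 to 81139312 counts in normal samples. *Krt12*, the keratin of corneal epithelial cells, lay at 3858 to 4455 FPKM in diabetic and 3660 to 4223 FPKM in normal libraries. These are bulk samples, in which fewer cells of a type and less RNA per cell cannot be told apart. Log2 fold changes below are diabetic minus normal on quantile-normalized log2(FPKM + 1), with the standard error (SE) and 95% interval of limma. Passing required a fold change over 1.2 and a p under 0.05 after Benjamini-Hochberg adjustment across the 42551 loci whose mean FPKM reached 0.5.

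The response elements in front of some members are printed here, since they are the letters through which interferon signalling is known to reach such genes. RefSeq promoters of build GRCr8, from 250 bases before to 50 bases after the gene start, matched 31 of the 39 genes, and *Ddx58*, *Dhx58*, *Adar*, *Mx2*, *Ifit2*, *Rtp4*, *Isg15* and *Usp18* had no entry. The ISRE core, GAAA followed by NN and again GAAA, on either strand, occurred in 20 of the 31 (64.5%), against 1312 of all 33469 promoters (3.92%). The GAS core TTCNNNGAA, which reads the same on both strands, occurred in 5 (16.1%), against 8.87% of all promoters. *Oas1a* and *Bst2* each had overlapping ISRE cores, and in *Bst2* the GAS core overlapped the ISRE as well. The sequences below run 5′ to 3′ in the direction of the gene, and the capitals mark a single core in each. This is an ISRE core in the first 7 and a GAS core in the last. Cores left unmarked are a GAS core in the *Parp14* window and the overlapping ISRE and GAS cores in the *Bst2* window.
Rsad2: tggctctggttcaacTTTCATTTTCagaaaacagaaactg
Oasl2: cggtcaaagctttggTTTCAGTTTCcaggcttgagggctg
Gbp2: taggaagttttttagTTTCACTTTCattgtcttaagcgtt
Irf7: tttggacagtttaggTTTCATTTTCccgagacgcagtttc
Ifit3: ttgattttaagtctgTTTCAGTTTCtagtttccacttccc
Bst2: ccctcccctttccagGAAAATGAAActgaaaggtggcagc
Parp14: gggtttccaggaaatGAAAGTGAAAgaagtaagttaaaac
Irf1: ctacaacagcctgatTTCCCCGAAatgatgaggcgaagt
These windows lie at chr6:48788243-48788282 (minus strand) for *Rsad2*, chr12:47383312-47383351 (minus) for *Oasl2*, chr2:234005681-234005720 (plus) for *Gbp2* and chr1:205800068-205800107 (minus) for *Irf7*. The other windows lie at chr1:241527267-241527306 (plus) for *Ifit3*, chr16:18255074-18255113 (minus) for *Bst2*, chr11:78408043-78408082 (plus) for *Parp14* and chr10:38417778-38417816 (plus) for *Irf1*. The marked cores begin 147, 151, 31, 69, 44, 131, 76 and 142 bases before the gene start in the order printed. A match is a description of these letters and not a measured binding site.

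Interferon-stimulated genes were read at ordinary levels in both groups, and no member passed. Mean FPKM levels over the 6 libraries ran from 0.152 FPKM for the chemokine gene *Cxcl10* to 41.6 FPKM for the transcription factor gene *Irf1*, and 13 of the 38 loci lay above 10 FPKM. The median of these means was 5.03 FPKM, against 4.66 FPKM for the 12278 protein-coding loci kept. Of the 38 loci, 37 reached the filter and *Cxcl10* did not. With limma 0 of the 37 passed (0.0259% of all loci did), and adjusted p was 0.953 or more for each. At unadjusted p under 0.05 there was 1 member, *Ifit2*, against 4.8% of all loci. With edgeR on the counts 0 of the 37 passed (0.0141% of all loci) and 0 had an unadjusted p under 0.05 (4.14%). With DESeq2 0 passed (0.234% of the loci it tested) and 1 had an unadjusted p under 0.05, *Lgals3bp* (5.02%).

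The signs were mixed. Log2 fold changes were above 0 for 22 and below 0 for 15 loci, with a median of 0.04, while the median of all loci was −0.005 and 49% of them lay above 0. On this scale, where adding 1 shrinks changes at low FPKM, they ran from −0.50 for *Oasl* to 0.46 for *Ifi35*. With edgeR on the counts the extremes were *Rtp4* at −1.04 and *Bst2* at 0.71, which had limma values of −0.43 and 0.35. The mean over the 6 libraries was 0.90 FPKM for *Rtp4* and 0.89 FPKM for *Bst2*. For 29 of the 37 loci the 95% interval lay within 1 log2 unit of 0 on either side, and for the other 8 it extended beyond that. The groups did not overlap for 3 loci (8.11%), against 9.66% of all loci and 9.02% of the protein-coding ones. Diabetic values were higher at 1 of them (3.94% of all loci) and lower at 2 (5.72%).

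**Figure D1:**
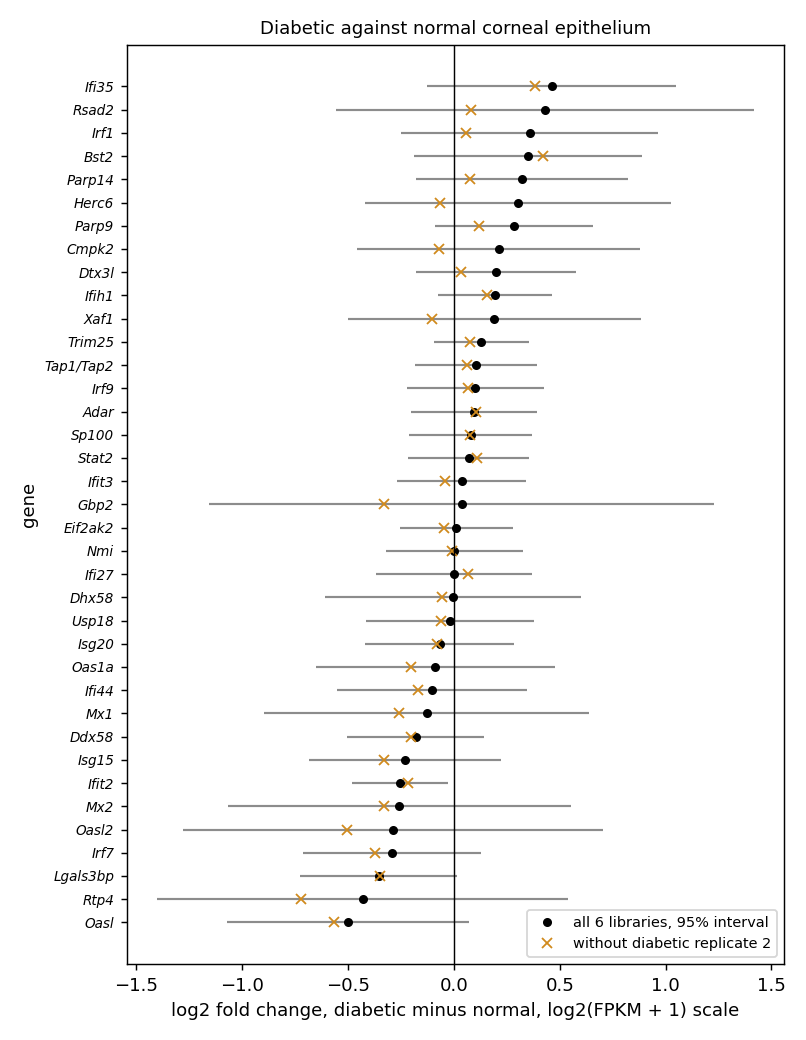
Log2 fold change, diabetic minus normal, on the log2(FPKM + 1) scale for the 37 loci tested, with all 6 libraries (points, bars give the 95% interval of limma) and without diabetic replicate 2 (crosses). The points run from −0.50 to 0.46, and *Ifit2* alone has an interval that leaves out 0.

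Sensors of viral RNA come first in the pathway. *Ifih1* encodes MDA5, which binds long double-stranded RNA, and *Ddx58* encodes RIG-I, which binds RNA with a triphosphate end. *Ifih1* (chr3:48557696-48604097 in rn6, minus strand) lay at 4.51, 5.09 and 5.004 FPKM in diabetic replicates 1, 2 and 3, against 4.61, 3.99 and 3.97 FPKM in normal replicates 1, 2 and 3. Only normal replicate 1 reached into the diabetic range (log2 fold change 0.19, SE 0.12, interval −0.08 to 0.46). *Ddx58* lay at 3.24, 3.49 and 3.58 FPKM in diabetic replicates, against 4.69, 3.31 and 4.37 FPKM in normal ones (−0.18, SE 0.14), and the groups overlapped through normal replicate 2. *Dhx58*, which encodes LGP2, a regulator of both, was low at 0.427 to 0.647 FPKM in diabetic and 0.475 to 0.715 FPKM in normal libraries. *Eif2ak2* encodes PKR, the kinase that halts translation on double-stranded RNA, and averaged 9.39 ± 0.650 FPKM in diabetic and 9.47 ± 0.964 FPKM in normal libraries (SD, n = 3 each). *Adar*, the RNA editing enzyme that keeps the cell's own RNA from these sensors, averaged 6.18 ± 0.672 FPKM in diabetic and 5.77 ± 0.679 FPKM in normal libraries (SD, n = 3 each). Log2 fold changes were positive in 3 of the 5 sensor genes and negative in 2.

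*Ifih1* also carried fragments without a stated strand, whose reads cannot be told apart from those of the gene where they overlap it. Of the 18 further rows that bear the name of a member, 8 belong to *Ifih1*. A fragment without a strand at chr3:48580192-48580969 (rn6), picked out after its values were seen, lay at 0.900, 1.79 and 2.12 FPKM in diabetic replicates and at 0.524, 0.679 and 0.557 FPKM in normal ones (log2 fold change 0.70). The groups did not overlap there, at a limma unadjusted p of 0.0167 and an adjusted p of 0.953. It was the only 1 of the 18 further rows with an unadjusted p under 0.05 (4.8% of all loci). Another *Ifih1* fragment was higher without overlap (0.34), and rows of *Dtx3l* (−0.60) and *Isg15* (−0.29) were lower without overlap (9.66% of all loci in either direction).

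Among the transcription factors and cofactors *Irf1*, *Irf7* and *Stat2* lay above 10 FPKM, and *Ifi35*, *Nmi*, *Irf9* and *Sp100* nearer the member median. *Irf1*, a factor that interferon gamma and other cytokines induce, lay at 32.5, 69.4 and 40.5 FPKM in diabetic replicates 1, 2 and 3 and at 39.9, 35.4 and 31.6 FPKM in normal replicates 1, 2 and 3. Diabetic replicate 2 stood far above the other 5 libraries, and diabetic replicate 1 lay within the normal range. The log2 fold change of *Irf1* was 0.36 (SE 0.26) and fell to 0.06 without diabetic replicate 2. The study lists *Irf1* among its genes upregulated in the diabetic group, whereas here it did not pass. *Irf7*, the master regulator of the type I interferon response, lay at 23.5, 24.4 and 18.5 FPKM in diabetic replicates and at 29.8, 33.3 and 20.8 FPKM in normal ones (−0.29, SE 0.18, interval −0.71 to 0.13). Normal replicates 1 and 2 lay above every diabetic library, and normal replicate 3 did not.

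*Ifi35*, which pairs with NMI as a cofactor, lay at 7.61, 7.96 and 6.04 FPKM in diabetic replicates, against 6.47, 6.17 and 3.00 FPKM in normal replicates. On the log2(FPKM + 1) scale it had the highest log2 fold change of all members (0.46, SE 0.25, interval −0.13 to 1.05). Without normal replicate 3, its lowest library, this was 0.16. *Stat2* and *Irf9* encode parts of the ISRE-binding complex. *Stat2* averaged 11.1 ± 1.26 FPKM in diabetic and 10.7 ± 1.38 FPKM in normal libraries (SD, n = 3 each), and the locus that *Irf9* shares with *Rnf31* averaged 5.004 ± 0.636 FPKM in diabetic and 4.66 ± 0.545 FPKM in normal libraries. *Nmi*, on a locus joined with *Rbm43*, had a log2 fold change of 0.0008, and *Sp100*, a nuclear body protein, one of 0.08. In this role *Irf7* alone of 7 genes had a log2 fold change below 0.

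The effectors act on the virus itself. *Ifit2* and *Ifit3*, neighbours on chromosome 1 that encode proteins binding foreign RNA or its translation machinery, were the most abundant. *Ifit2* (chr1:252894663-252900726 in rn6, plus strand) lay at 28.3, 24.6 and 25.5 FPKM in diabetic replicates 1, 2 and 3, against 32.4, 34.1 and 28.8 FPKM in normal replicates 1, 2 and 3. Every diabetic library lay below every normal one, with diabetic replicate 1 and normal replicate 3 close together. Its log2 fold change was −0.25 (SE 0.10, interval −0.48 to −0.03), with a limma unadjusted p of 0.0323 and an adjusted p of 0.953. *Ifit3*, which starts 5508 bases beyond the end of *Ifit2*, had no such order, at 31.2, 32.5 and 23.5 FPKM in diabetic and 29.3, 30.5 and 25.0 FPKM in normal replicates. The annotated locus *Ifit1bl* overlaps both on the other strand, and reads of the overlap cannot be told apart.

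*Lgals3bp* encodes a secreted glycoprotein that binds galectins. It lay at 2.91, 2.58 and 2.58 FPKM in diabetic replicates, against 4.49, 3.98 and 2.94 FPKM in normal ones. The groups touched without overlapping, diabetic replicate 1 being just below normal replicate 3 (log2 fold change −0.36, SE 0.16, interval −0.72 to 0.01). *Oasl*, of the family related to oligoadenylate synthetases, had the lowest log2 fold change on the log2(FPKM + 1) scale (−0.50, SE 0.25). It lay at 15.2, 13.1 and 8.51 FPKM in diabetic replicates and at 15.2, 14.5 and 23.7 FPKM in normal ones. Without both libraries numbered 3, which hold its lowest and highest values, its log2 fold change was −0.06.

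Several effectors differed far more between libraries of a group than between the groups. *Rtp4*, a chaperone gene that interferon induces strongly, had 76, 169 and 16 counts in diabetic replicates 1, 2 and 3, against 361, 232 and 42 counts in normal replicates 1, 2 and 3. In FPKM its highest library, normal replicate 1, stood 19.6 times above its lowest, diabetic replicate 3. *Oasl2*, next to *Oasl* on chromosome 12, had 181, 285 and 110 counts in diabetic and 569, 508 and 41 counts in normal replicates, a 14.6-fold range in FPKM, with normal replicate 3 lowest. *Mx1* and *Mx2*, GTPases that block virus entry into the nucleus or virus replication, ranged 2.97-fold and 6.10-fold. *Mx1* lay at 2.89, 2.94 and 1.52 FPKM in diabetic and 3.36, 4.01 and 1.35 FPKM in normal replicates, so the replicate numbered 3 was lowest in each group. *Gbp2*, a GTPase induced by interferon gamma, lay at 19.5, 20.5 and 4.16 FPKM in diabetic and 14.4, 10.1 and 11.4 FPKM in normal replicates. Diabetic replicate 3 alone was low there, and without it the log2 fold change of *Gbp2* was 0.72 in place of 0.04. None of these genes passed, and close relatives such as *Mx1* and *Mx2* or the *Oas* genes may exchange reads in the counting.

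**Figure D2:**
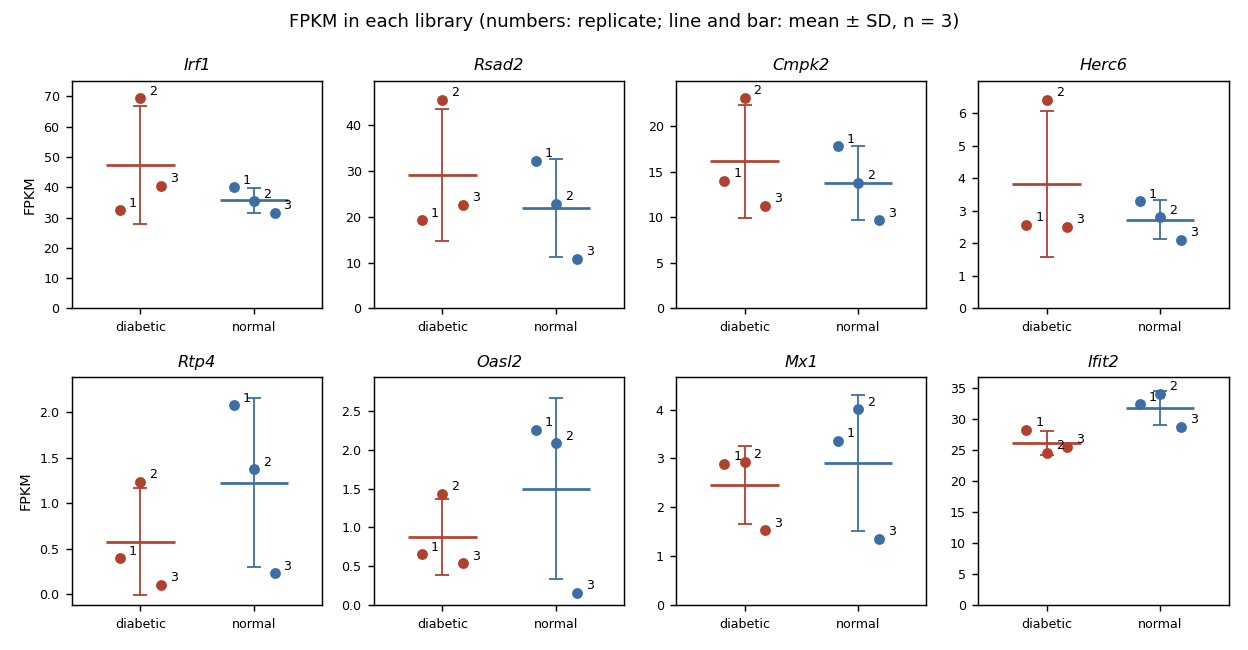
FPKM of 8 members in each of the 3 diabetic and 3 normal libraries, numbered by replicate, with the mean and SD (n = 3 each). For *Irf1*, *Rsad2*, *Cmpk2* and *Herc6* diabetic replicate 2 is highest, for *Rtp4*, *Oasl2* and *Mx1* the replicate numbered 3 is lowest in each group, and for *Ifit2* the groups do not overlap.

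*Rsad2* encodes viperin, which makes a chain-terminating nucleotide, and its neighbour *Cmpk2* encodes a nucleotide kinase that feeds it. They lie 14086 bases apart on chromosome 6 and point away from each other. *Rsad2* lay at 19.2, 45.5 and 22.6 FPKM in diabetic and 32.1, 22.8 and 10.8 FPKM in normal replicates, and *Cmpk2* at 14.0, 23.1 and 11.3 FPKM in diabetic and 17.8, 13.8 and 9.66 FPKM in normal replicates. Both genes were highest in diabetic replicate 2, followed by normal replicate 1, and lowest in normal replicate 3. The log2 fold changes were 0.43 (SE 0.42) and 0.21 (SE 0.29), and without diabetic replicate 2 they were 0.08 and −0.07. Sharing a neighbourhood did not always go with sharing an order, since *Oasl* was highest and *Oasl2* lowest in normal replicate 3, at a distance of 12704 bases.

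The remaining effectors overlapped between the groups. *Isg20*, an exonuclease gene, averaged 10.9 ± 0.862 FPKM in diabetic and 11.8 ± 2.33 FPKM in normal libraries (SD, n = 3 each). *Ifi27*, which encodes a mitochondrial protein, averaged 17.2 ± 3.76 FPKM in diabetic and 17.3 ± 2.49 FPKM in normal libraries (SD, n = 3 each). *Bst2*, the gene of tetherin, which holds budding virus at the cell surface, was low at 0.847 to 1.24 FPKM in diabetic and 0.359 to 1.03 FPKM in normal libraries. *Oas1a* (log2 fold change −0.09), *Ifi44* (−0.10) and the apoptosis-related *Xaf1* (0.19) lay between. The 17 effectors split into 7 above and 10 below 0, and their median was −0.09.

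ISG15 is a ubiquitin-like protein that is joined to other proteins, in rodents by the ligase HERC6, and removed by USP18. *Isg15* lay at 2.76, 3.48 and 2.71 FPKM in diabetic and 4.32, 4.42 and 2.63 FPKM in normal replicates (log2 fold change −0.23, SE 0.19). Normal replicate 3 was lowest of all 6, and normal replicates 1 and 2 lay above every diabetic library. A further row named *Isg15*, without a strand and of higher FPKM, had another order. It lay at 4.28, 3.30 and 3.67 FPKM in diabetic and 4.47, 4.35 and 5.74 FPKM in normal replicates. Normal replicate 3 was highest there, and the groups did not overlap (−0.29, limma unadjusted p 0.0756, adjusted p 0.953). *Usp18* averaged 3.30 ± 0.368 FPKM in diabetic and 3.45 ± 0.874 FPKM in normal libraries (SD, n = 3 each). *Herc6* lay at 2.58, 6.42 and 2.50 FPKM in diabetic and 3.30, 2.80 and 2.11 FPKM in normal replicates, with diabetic replicate 2 alone above the normal range (0.30, SE 0.31, and −0.07 without it). *Trim25*, the ubiquitin ligase of RIG-I, lay at 10.5, 11.7 and 10.8 FPKM in diabetic and 10.2, 9.87 and 10.1 FPKM in normal replicates. These groups did not overlap, but the difference was small (0.13, SE 0.10), and the locus carries the joined name of *Trim25* and AC119015.

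PARP9 and DTX3L form a complex that adds ubiquitin or ADP-ribose to histones and to viral proteins, and PARP14 is a related ADP-ribosyltransferase. Their genes lie on chromosome 11, and *Parp9* and *Dtx3l* overlap at their starts by 1258 bases on opposite strands. *Parp9* lay at 8.10, 10.8 and 6.93 FPKM in diabetic and 7.12, 6.41 and 7.07 FPKM in normal replicates. *Parp14* lay at 8.68, 16.6 and 10.8 FPKM in diabetic and 9.45, 9.62 and 8.59 FPKM in normal replicates. Diabetic replicate 2 was highest for both and for *Dtx3l* (6.49 FPKM, against 4.37 and 4.44 FPKM in the other diabetic and 4.10 to 4.58 FPKM in the normal libraries). The log2 fold changes of *Parp9*, *Dtx3l* and *Parp14* were 0.28, 0.20 and 0.32, and without diabetic replicate 2 they were 0.12, 0.03 and 0.07.

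*Tap1* and *Tap2*, the transporter of peptides to class I molecules, were read as a single locus on chromosome 20, at 2.84, 3.24 and 3.15 FPKM in diabetic and 2.92, 3.01 and 2.56 FPKM in normal replicates (log2 fold change 0.10, SE 0.12). *Cxcl10*, the chemokine that draws T cells to sites of interferon, had only 14, 12 and 16 counts in diabetic and 22, 23 and 4 counts in normal replicates, and its mean FPKM was under the filter. Without the filter 0 of the 38 member loci passed with limma.

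**Figure D3:**
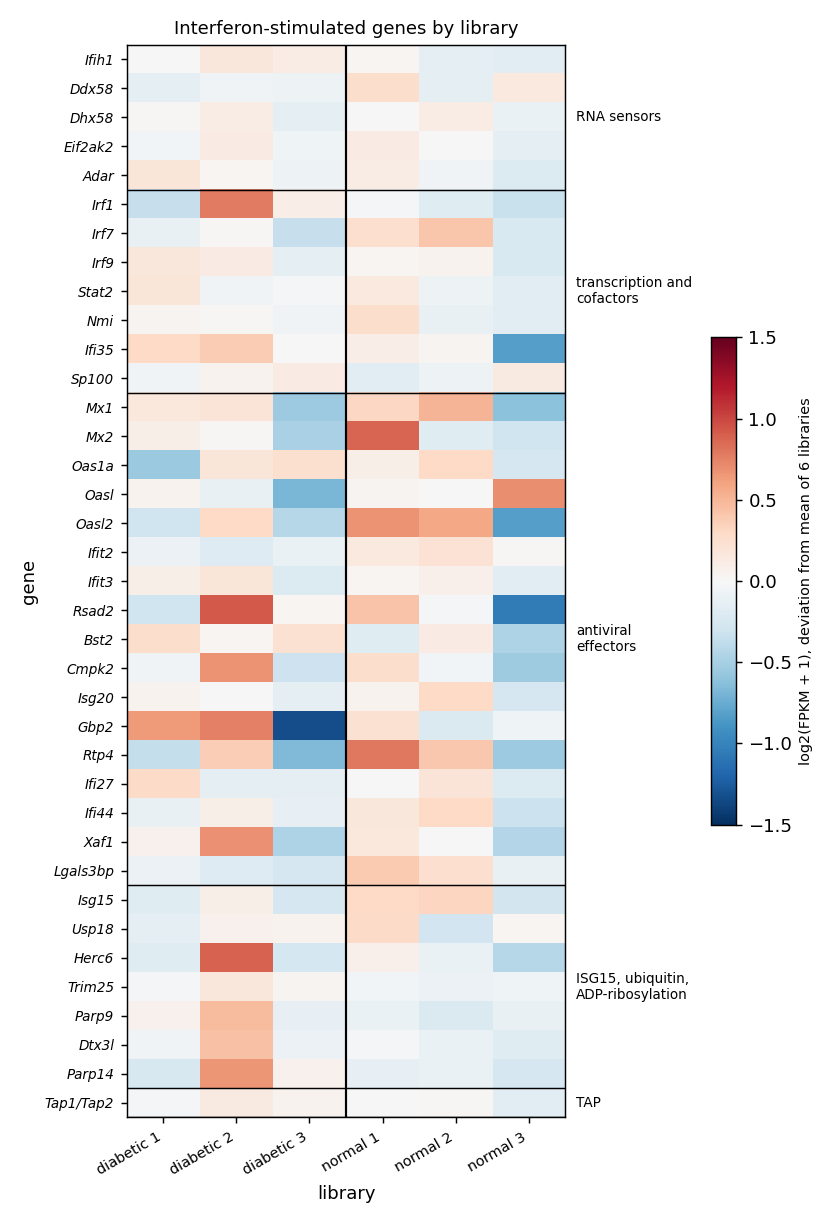
Deviation of each member from its mean over the 6 libraries, on quantile-normalized log2(FPKM + 1), for the 37 loci tested, with diabetic libraries on the left, normal libraries on the right and genes ordered by role. Red is above and blue below the mean of that gene. In the column of diabetic replicate 2, 30 of the 37 loci lie above their mean, and in that of normal replicate 3 only 5 do (*Ddx58*, *Sp100*, *Oasl*, *Ifit2* and *Usp18*).

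Many members shared an order of libraries that crossed the groups. Normal replicate 3 had the lowest FPKM for 22 of the 38 loci (57.9%), against 20.4% of the protein-coding loci kept. Diabetic replicate 3 was lowest for 9 (23.7%, against 23.8%), diabetic replicate 1 for 2 (5.26%, against 14.2%) and diabetic replicate 2 for 1 (2.63%, against 21.3%). Normal replicate 2 was lowest for 3 (7.89%, against 11.5%) and normal replicate 1 for 1 (2.63%, against 8.8%). A single normal library therefore held the lowest value of most members. Diabetic replicate 2 had the highest FPKM for 14 loci (36.8%, against 16.4%), diabetic replicate 1 for 4 (10.5%, against 16.8%) and diabetic replicate 3 for 1 (2.63%, against 18.7%). Normal replicates 1, 2 and 3 were highest for 8, 9 and 2 loci (21.1%, 23.7% and 5.26%, against 16.1%, 16.2% and 15.8%). Within the normal group replicate 3 lay below the others for 31 loci (81.6%, against 42.9%), and within the diabetic group replicate 2 lay above the others for 22 (57.9%, against 28.8%). For 17 loci (44.7%, against 12.0%) both libraries numbered 3 lay below the other 4. In CPM, the counts scaled to the library total, normal replicate 3 was lowest for 20 of the 38 loci (19.3% of protein-coding loci), and after quantile normalization for 20 of the 37 tested (23.0%). The number 3 is a label, and no source used here says that libraries of the same number were handled together.

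The spread was also wide. The highest library stood above the lowest by a median of 1.71 times over the members, against 1.46 times over the 12187 protein-coding loci kept that had counts in every library. It was over 2-fold for 15 loci (39.5%), against 20.1% of those protein-coding loci. Among the 20 genes with an ISRE core in the promoter 14 were lowest in normal replicate 3, and among the 11 matched genes without one 7 were. *Tap1* and *Tap2*, which share their locus and its values, both count among the 20 and the 14. The median ratio of highest to lowest library was 1.77 in genes with and 2.20 in genes without the core. These shares describe related genes in 6 libraries, and no test was applied to them.

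**Figure D4:**
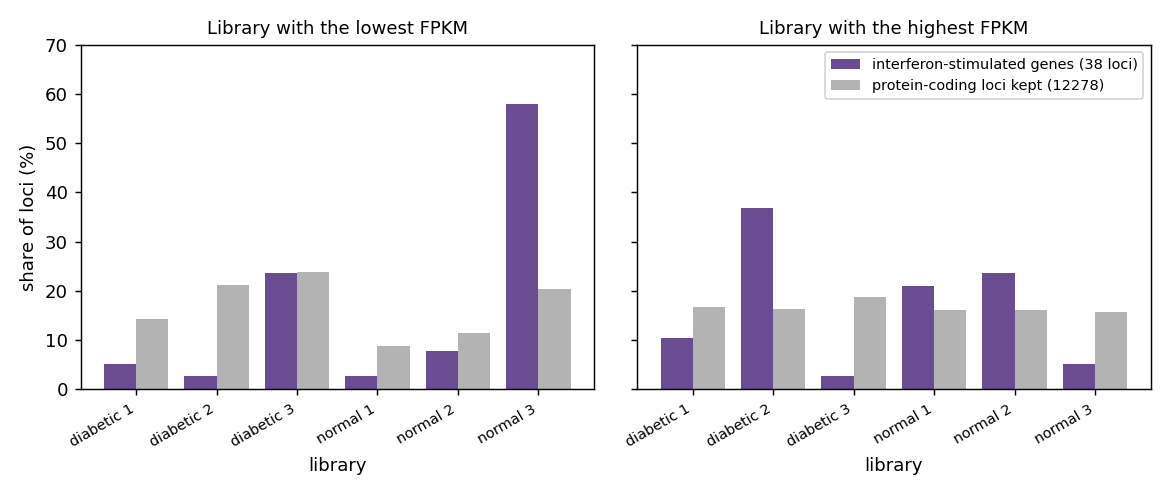
Share of loci (%) for which each library had the lowest (left) or the highest (right) FPKM, for the 38 loci of interferon-stimulated genes and the 12278 protein-coding loci kept. Normal replicate 3 is lowest for 57.9% of the members and 20.4% of the protein-coding loci, and diabetic replicate 2 is highest for 36.8% and 16.4%.

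Few reads came from the interferons themselves. Of 11 interferon genes 7 had 0 counts in all 6 libraries, among them *Ifnb1*, *Ifng* and both lambda interferons listed, which allows up to 0.0345 to 0.0482 CPM in a single library from counting error alone. Only *Ifnk*, an interferon of keratinocytes, reached the filter, at 1.45, 1.35 and 1.89 FPKM in diabetic and 1.47, 1.61 and 1.14 FPKM in normal replicates (log2 fold change 0.11, SE 0.16). Their receptors were all read. *Ifnar1* lay at 14.8 to 16.3 FPKM in diabetic and 13.2 to 16.2 FPKM in normal libraries, and the lambda receptor gene *Ifnlr1* at 3.45 to 8.29 FPKM in diabetic and 4.26 to 6.26 FPKM in normal libraries. For all 6 receptor genes the log2 fold change was above 0 (median 0.12). With limma, edgeR and DESeq2 0 passed, and 0 reached an unadjusted limma p of 0.05.

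Signalling below the receptors was covered by 13 genes, of which 0 passed in limma, edgeR or DESeq2 and 1 reached an unadjusted limma p of 0.05 (4.8% of all loci). This was *Ptpn11*, the phosphatase SHP2, at 16.7, 17.4 and 17.3 FPKM in diabetic and 9.68, 16.9 and 9.36 FPKM in normal replicates, where normal replicate 2 lay next to the diabetic libraries. *Jak1* lay at 27.0 to 27.7 FPKM in diabetic and 25.5 to 26.5 FPKM in normal libraries, without overlap (0.08, SE 0.09). It was the only 1 of the 13 without overlap (9.66% of all loci). Of 15 tested genes that induce interferon, 0 passed with limma or edgeR, and DESeq2 called 1 (0.234% of the loci it tested), *Traf6*, an adaptor ligase. It lay at 4.55, 3.52 and 4.71 FPKM in diabetic and 6.80, 6.88 and 7.48 FPKM in normal replicates, lower without overlap (−0.61, SE 0.12). The adjusted p of *Traf6* was 0.0155 with DESeq2 and 0.875 with edgeR. The study reports the opposite direction, with *Traf6* higher in diabetic epithelium by sequencing and by RT-qPCR. Why the directions differ was not tested. *Traf3*, a related adaptor, was higher without overlap, at 3.36, 3.97 and 3.36 FPKM in diabetic and 2.90, 1.56 and 3.13 FPKM in normal replicates (0.41, SE 0.20). Among the 15, *Traf3* was the only 1 higher without overlap (3.94% of all loci) and *Traf6* the only 1 lower (5.72%). *Ikbke*, a kinase that activates IRF3 and IRF7, lay at 4.32, 7.75 and 5.12 FPKM in diabetic and 4.52, 3.59 and 2.62 FPKM in normal replicates (0.56, SE 0.23), again highest in diabetic replicate 2. The study too reports *Ikbke* as higher in the diabetic group. Of the 15, 1 gene higher (*Ikbke*, 0.0448) and 1 lower (*Traf6*, 0.00124) reached an unadjusted limma p of 0.05, against 4.8% of all loci. The limma adjusted p was 0.953 for *Ptpn11*, *Traf6* and *Ikbke*.

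Of 54 further interferon-stimulated genes outside the 39, 50 were found and 42 tested. Their log2 fold changes lay above 0 for 25 and below 0 for 17 (median 0.05). In limma, edgeR and DESeq2 0 passed. *Trim5* and *Tor3a*, both with lower diabetic means, reached an unadjusted limma p of 0.05, which is 2 of 42, against 4.8% of all loci. *Ifitm3*, which keeps viruses from fusing in endosomes, was the most abundant, at 191, 132 and 129 FPKM in diabetic and 137, 111 and 67.9 FPKM in normal replicates, with normal replicate 3 lowest (0.58, SE 0.25). *Trim5*, a capsid sensor in primates, lay at 3.38, 4.21 and 5.26 FPKM in diabetic and 7.04, 6.29 and 6.88 FPKM in normal replicates, lower without overlap (−0.55, SE 0.14, limma unadjusted p 0.00614, adjusted p 0.953). Without overlap *Parp10* (0.12) and *Parp12* (0.22), ADP-ribosyltransferase genes, were higher, and *Lap3* (−0.22) and *Bcl2l14* (−0.27) were lower as *Trim5* was. That makes 2 of the 42 higher (3.94% of all loci) and 3 lower (5.72%). Of 16 genes of class I antigen processing 8 lay above and 8 below 0 (median 0.0089), and 0 passed in limma, edgeR or DESeq2 or reached an unadjusted limma p of 0.05. The mean deviation of the 42 further genes was highest in diabetic replicate 2 (0.14) and lowest in normal replicate 3 (−0.17), as it was for the 37 member loci (0.23 and −0.25). The same libraries were highest and lowest for class I antigen processing (0.15 and −0.17) and for signalling below the receptors (0.07 and −0.11). The receptors were lowest in normal replicate 2 (−0.16). Genes that induce interferon were highest in normal replicate 1 (0.13) and lowest in diabetic replicate 3 (−0.15).

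Markers of other tissue also differed between libraries, though not always in the order of the members, and their part in that order was not tested. *Krt13*, a keratin of the conjunctiva and limbus, lay at 758, 652 and 310 FPKM in diabetic and 728, 802 and 382 FPKM in normal replicates, lowest in the replicate numbered 3 of each group. *Krt4*, a keratin of the same tissue, lay at 411, 473 and 187 FPKM in diabetic and 446, 586 and 406 FPKM in normal replicates, in the same way. The mucin gene *Muc4* did not, at 151, 227 and 185 FPKM in diabetic and 150, 122 and 163 FPKM in normal replicates, and the joined locus that holds *Krt19* was highest in normal replicate 3 (81.3 FPKM). The 4 conjunctival markers found of 5 summed to 735 to 1416 FPKM in diabetic and 1033 to 1564 FPKM in normal libraries, and their mean deviation was lowest in diabetic replicate 3 (−0.41) and 0.04 in normal replicate 3. The 14 lens markers summed to 163, 1420 and 8.59 FPKM in diabetic and 396, 120 and 162 FPKM in normal replicates, so that diabetic replicate 2 and then normal replicate 1 held the most. Diabetic replicate 3 held the least, while normal replicate 3, the lowest library for most members, lay close to diabetic replicate 1 and above normal replicate 2. Among the 9 keratocyte markers found, *Col1a1* (309, 349 and 253 FPKM in diabetic, 489, 487 and 204 FPKM in normal replicates) and *Col5a1* were lowest in normal replicate 3. *Lum*, *Kera* and *Dcn* were highest in that library. *Lum* alone of the 9 did not overlap (9.66% of all loci), at 102 to 123 FPKM in diabetic and 148 to 172 FPKM in normal libraries (−0.48, SE 0.14). Of 27 immune cell markers 4 were at 0 counts in all libraries (*Cd3d*, *Ms4a1*, *Nkg7* and *Cd207*), and the list summed to 38.9 to 44.9 FPKM in diabetic and 42.0 to 46.5 FPKM in normal libraries. Most of each sum came from the joined locus of *Cd68* (15.6 to 20.8 FPKM over all libraries) and from *Lyz2* (9.15 to 16.7 FPKM). *Ptprc*, the common marker of blood cells, was at 0.0895 to 0.290 FPKM in diabetic and 0.245 to 0.453 FPKM in normal libraries. The class II gene *Cd74*, which interferon gamma also induces, lay at 2.68, 3.35 and 3.21 FPKM in diabetic and 5.25, 8.03 and 3.97 FPKM in normal replicates, lower without overlap (−0.67, SE 0.22, limma unadjusted p 0.0172, adjusted p 0.953), as was *RT1-Da* (−0.47). Only 6 of the markers were tested, and 2 of them were lower without overlap (5.72% of all loci) and 0 higher (3.94%). Among the markers under the filter, which were not tested, *S100a9*, a gene of neutrophils and stressed epithelium, was higher without overlap. It had 13, 24 and 38 counts in diabetic and 0, 0 and 0 counts in normal replicates. *Mpo*, a neutrophil enzyme gene, was also higher without overlap but had at most 4 counts in a library. The shares above cover only loci that reached the filter, so none applies to *S100a9* or *Mpo*. *S100a8* overlapped, with 15, 10 and 10 counts in diabetic and 8, 8 and 19 counts in normal replicates, and so did *Itgam*. The locus of *Cd68*, a macrophage marker, is joined with *Mpdu1* and overlapped between the groups (0.12).

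**Figure D5:**
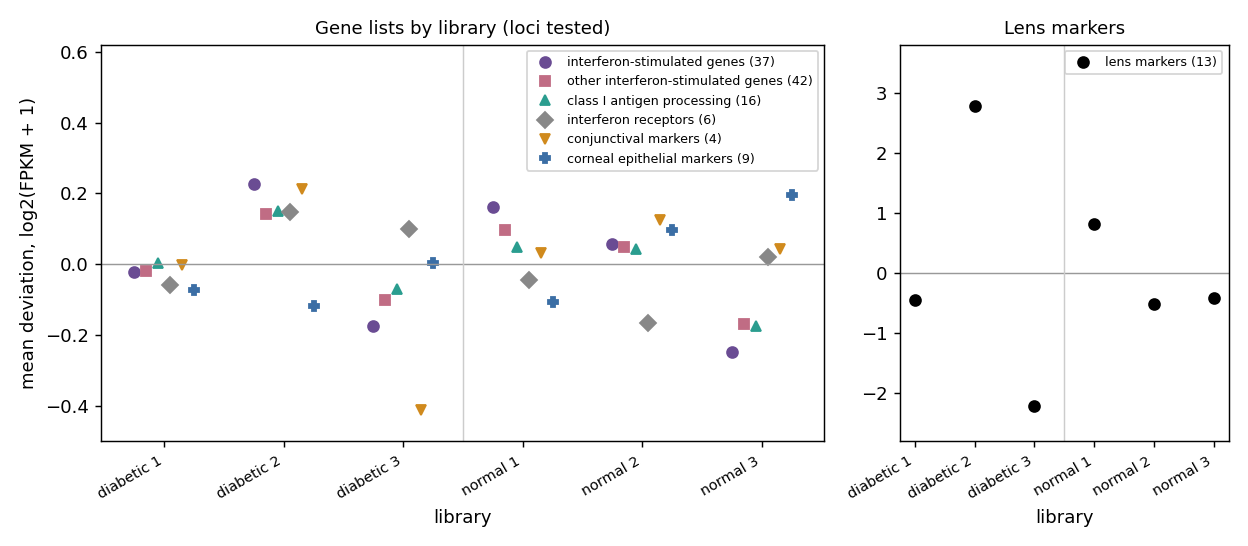
Mean deviation of gene lists from their mean over the 6 libraries, on quantile-normalized log2(FPKM + 1), with the number of loci tested in brackets and lens markers on a separate scale. The 37 member loci are highest in diabetic replicate 2 (0.23) and lowest in normal replicate 3 (−0.25), and lens markers run from 2.78 in diabetic replicate 2 to −2.21 in diabetic replicate 3.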

How the data were processed

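Per the labels, the processing notes of the authors name cutadapt, FastQC, Bowtie2 and rat build rn6. For the counter, the tool versions and the use of strand, the sources used here give nothing. Per the file headers the authors deposited a raw count and an FPKM value for each of 61453 loci, of which 31831 have a transcript type. The deposited FPKM hold a placeholder where the count is 0 (86380 values), which was set to 0. The study's methods name log2 values, normalization and limma. The choice of FPKM, the pseudocount of 1, quantile normalization, eBayes with trend and the filter were made here, with limma 3.58.1 in R 4.3.3, for the 42551 loci whose mean FPKM reached 0.5. The counts of the same loci were tested with edgeR 4.0.16 (quasi-likelihood) and DESeq2 1.42.0. The tests were tried on simulated counts first. Intervals are 95%, and floors use 3 counts and cover counting error only. Of 183 listed symbols outside the members 174 were found. Members and lists were chosen with earlier results of these data known. Values in every library are given for members without overlap, the pair of smallest p per role, the 3 of highest FPKM and *Irf1*. *Rsad2*, *Cmpk2*, *Rtp4*, *Oasl*, *Oasl2*, *Mx1*, *Gbp2*, *Herc6*, *Isg15* and *Cxcl10* were added after their values were seen. Alternatives were other tests, scales, filters, loci, the replicate block and leaving out each library. Figures were drawn with matplotlib 3.10.9.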

Additional observations from a re-analysis of the deposited data

How the results depend on the processing

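No interferon-stimulated gene passed under any of the 18 alternatives, of which 15 were planned and 3 were chosen after seeing the data (without both libraries numbered 3, protein-coding loci alone, and edgeR with a block). The smallest adjusted p of a member in any of them was 0.493, for *Irf1*. Of 38 genes tested 22 kept their sign throughout and 16 changed it in some setting. None of the 16 passed with either sign, though *Gbp2*, for example, ran from −0.33 to 0.72. The median log2 fold change of the members was 0.04, −0.06 without diabetic replicate 2 and −0.01 without normal replicate 3, and ran up to 0.12 without normal replicate 1. At their loci of highest FPKM *Mx2* was at 0.31 in place of −0.26 and *Isg15* at −0.29 in place of −0.23. Groups without overlap numbered 2 to 4 across scales and loci. The shares over all loci given above hold for FPKM at the loci of the main test, so this range has no background beside it.

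Over all loci 11 passed with limma, 99 with DESeq2, 6 with edgeR, 6 with a pseudocount of 0.1, 3 without the filter, 3 among protein-coding loci alone and 0 without both libraries numbered 3. Leaving out a single library gave 3 to 10. The cause was not tested. With the replicate number as a block 1 locus passed with limma and 0 with edgeR, and no member did. Over all loci kept, libraries of the same number deviated from their group means with correlations of −0.009, 0.025 and 0.032. Diabetic replicates 1 and 2 correlated better with another number. Correlations over all loci cannot show whether libraries shared handling that touched only some genes, so pairing remained undecided. *Cxcl10*, with 4 to 23 counts a library, was the member read least deeply.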
